A study of Mus musculus with 2 samples.

Results

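The genes described are 6 that carry, transmit or restrain cytokine signals in mast cells: the receptor chain genes Il4ra and Il2ra, the signal transducer gene Stat2, the STAT5 target genes Cish and Bcl2l1, and Cish and Socs7 as genes of the suppressor of cytokine signalling (SOCS) family. They were taken by symbol from a table of 8139 gene symbols, and all 6 were listed. Messenger RNA was profiled in 1 library from Tet2-/- and 1 library from wild type (WT) mast cells that had been grown out of C57BL/6 bone marrow. Tet2-/- cells lack an enzyme that oxidises 5-methylcytosine in DNA. Cells of both genotypes were grown from femoral marrow for 4 to 6 weeks in medium holding serum at 10%, interleukin-3 (IL-3) at 10 ng/ml and stem cell factor at 5 ng/ml, and carried the IgE receptor and c-Kit on more than 97.5% of cells. The allele, the age and sex of the mice and the number of mice behind each culture could not be learned from the labels. IL-3 was thus present in both cultures, and its receptor signals through STAT5.

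Cytokine receptors of the class I family lack a kinase of their own and bind Janus kinases (JAKs), which phosphorylate STAT proteins once the cytokine is bound. Phosphorylated STATs enter the nucleus as dimers and activate genes, among them those of the SOCS family, whose products dampen the same receptors. STAT5 is the main STAT downstream of IL-3, STAT6 is that downstream of IL-4, and STAT2 works in a complex with IRF9 downstream of type I interferon. Mast cells need these pathways to grow, to survive and to answer IL-4.

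The level of each gene was given as RPKM, a read number divided by gene length and by library size. With 1 library per genotype there was no spread between replicates, so no difference has a test and no p-value is given. The whole-fragment spacing of low values implied a depth of 31900000 fragments in the Tet2-/- library and 31200000 in the WT library. Bracketed 95% intervals are exact Clopper-Pearson intervals of a ratio at these depths. They cover counting error only, and not differences between cultures, mice or library preparations. The 6 genes were selected on the RPKM values of these same libraries together with their roles, so the values below describe them and test nothing.

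STAT dimers bind a DNA element with a 3-base spacer, TTCNNNGAA, and STAT6 also binds one with a 4-base spacer, TTCNNNNGAA. Both motifs read the same on either strand. The complex that holds STAT2 binds elements built on GAAANNGAAA, which reads TTTCNNTTTC on the opposite strand. Promoter windows of 300 bases, 250 before and 50 after each RefSeq start (build GRCm38.p6), matched 5 of the 6 genes by symbol and gave 7 windows, 3 of them for Bcl2l1. Socs7 had none. The windows of Cish and Stat2 are shown as those that hold more than 1 match, and those of Il2ra and Il4ra because these receptor genes differ widely in CpG content. The first Bcl2l1 window, with 1 match, is not shown. Capitals mark motif matches.

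Cish, chr9:107296409-107296708, + strand: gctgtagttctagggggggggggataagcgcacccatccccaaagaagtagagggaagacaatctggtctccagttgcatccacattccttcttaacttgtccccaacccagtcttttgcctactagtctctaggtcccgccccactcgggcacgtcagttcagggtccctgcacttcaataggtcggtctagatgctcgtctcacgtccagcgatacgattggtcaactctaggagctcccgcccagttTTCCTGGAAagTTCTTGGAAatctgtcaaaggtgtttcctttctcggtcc
Stat2, chr10:128270248-128270547, + strand: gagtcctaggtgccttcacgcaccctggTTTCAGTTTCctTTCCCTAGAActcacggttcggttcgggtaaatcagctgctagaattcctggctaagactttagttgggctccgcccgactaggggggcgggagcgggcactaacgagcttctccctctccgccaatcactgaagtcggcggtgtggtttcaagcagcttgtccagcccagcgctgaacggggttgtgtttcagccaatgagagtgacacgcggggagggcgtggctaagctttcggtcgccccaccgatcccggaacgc
Il2ra, chr2:11642542-11642841, + strand: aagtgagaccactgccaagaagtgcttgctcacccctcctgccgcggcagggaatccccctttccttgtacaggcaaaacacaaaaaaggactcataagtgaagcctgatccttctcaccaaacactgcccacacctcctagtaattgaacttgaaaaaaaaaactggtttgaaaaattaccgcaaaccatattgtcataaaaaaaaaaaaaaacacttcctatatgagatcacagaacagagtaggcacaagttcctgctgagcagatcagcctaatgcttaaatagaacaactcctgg
Il4ra, chr7:125552021-125552320, + strand: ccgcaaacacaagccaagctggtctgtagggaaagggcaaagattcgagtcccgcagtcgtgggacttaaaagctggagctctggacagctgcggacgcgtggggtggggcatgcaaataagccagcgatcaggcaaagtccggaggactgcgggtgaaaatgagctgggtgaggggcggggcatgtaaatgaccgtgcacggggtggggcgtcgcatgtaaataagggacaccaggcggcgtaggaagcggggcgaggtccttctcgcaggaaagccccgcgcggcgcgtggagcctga

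The Cish window held a pair of matches to the 3-base-spacer motif, TTCCTGGAA beginning at base 1 after the start and TTCTTGGAA beginning at base 12. Of 32851 promoter windows of this length, 8.30% held at least 1 such match and 0.457% held 2 or more. The pair lies 42 and 31 bases before the start of the shorter GENCODE transcript of Cish and within the span of the longer one. The Stat2 window held 1 match to the interferon motif, TTTCAGTTTC beginning 222 bases before the start, which 3.44% of windows hold. It also held 1 match to the 4-base-spacer motif, TTCCCTAGAA beginning 210 bases before the start, which 6.95% of windows hold, and the 2 matches do not overlap. The first of the Bcl2l1 windows held 1 match to the 4-base-spacer motif, TTCTTCAGAA beginning 4 bases before the start. The windows of Il4ra and Il2ra and the other 2 of Bcl2l1 held none of the 3 motifs. A match is a run of letters and not a measured binding site.

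The windows also differed in CpG sites, the dinucleotides that carry most DNA methylation. The Il4ra window held 25 CpG and the Stat2 window 22, against a median of 7 over all windows. The Cish window held 11 and the Il2ra window 3. The Bcl2l1 windows held 1, 14 and 22. DNA methylation was not measured in the files used here.

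**Figure D1:**
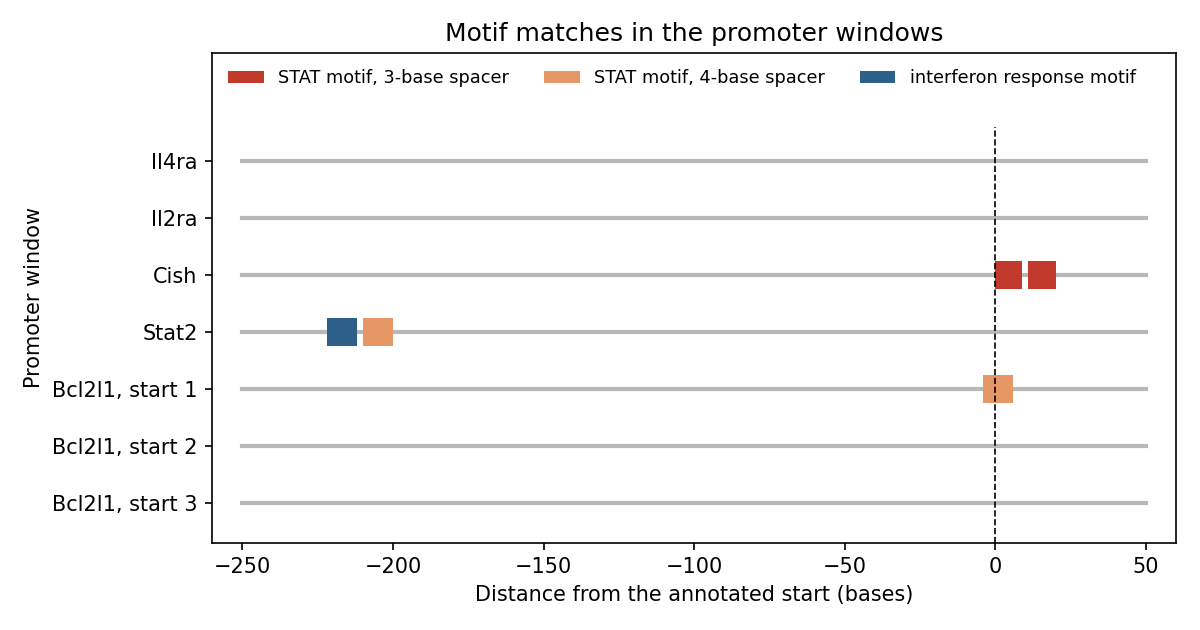
Positions of motif matches in the 7 promoter windows, with distance from the annotated start in bases on the horizontal axis and 1 window per row. Red bars are matches to the STAT motif with a 3-base spacer, orange bars those with a 4-base spacer and blue bars the interferon response motif. The pair in Cish begins at bases 1 and 12, and the Stat2 matches begin 222 and 210 bases before the start.

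The 6 genes did not differ in a common direction between the libraries. Cish, Bcl2l1 and Socs7 were higher in Tet2-/- cells, and Il2ra, Il4ra and Stat2 were lower. Differences in log2(RPKM + 1), a scale that shrinks folds of weakly expressed genes, were set against a fixed rule of size of 2-fold, among models averaging 1 RPKM or more over both libraries. All 6 passed this filter, 1 of them, Il2ra, was lower by 2-fold or more, and none was higher by as much. Of all 2107 models past the filter, 1.61% were lower and 2.90% higher by this rule, 4.51% in all. The median log2 fold of the 6 genes was -0.053, beside 0.0092 over all models. Counting intervals excluded a ratio of 1 for 5 of the 6 genes, 2 above and 3 below, but at this depth the same held for 50.6% of 1922 models with an interval, 27.1% above and 23.6% below.

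**Figure D2:**
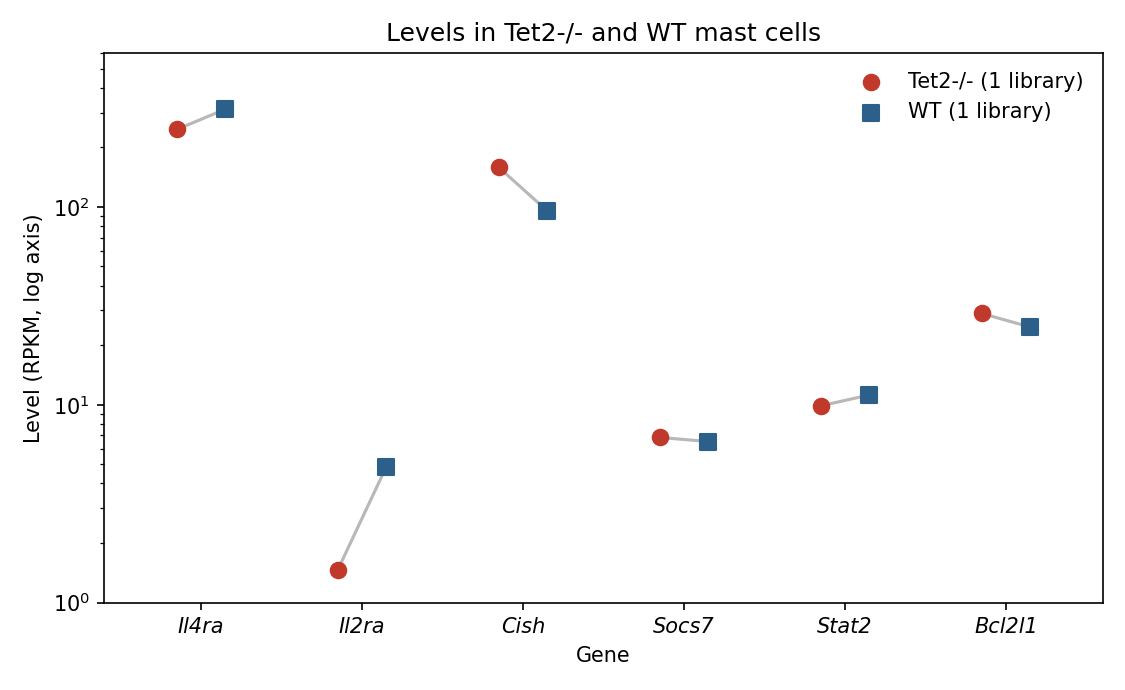
Levels of the 6 genes in RPKM on a log axis, with the single Tet2-/- library (red circles) left of the single WT library (blue squares) for each gene and a grey line joining them. Il4ra is highest, at 246 RPKM in Tet2-/- and 312 RPKM in WT cells, and the line of Il2ra, at 1.47 RPKM in Tet2-/- and 4.84 RPKM in WT cells, is the steepest.

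Il4ra encodes the alpha chain that binds IL-4 and serves in both the IL-4 and the IL-13 receptor. The gene lies on chromosome 7 (125552120 to 125579474, mm10, plus strand). It stood at 246 RPKM in Tet2-/- cells, on about 39922 fragments, and at 312 RPKM in WT cells, on about 49430 fragments. The ratio of Tet2-/- to WT was 0.790 (0.780 to 0.800), a log2 fold of -0.34. Il4ra was the most abundant of the 6 genes in both libraries, ranking 58 in Tet2-/- cells and 42 in WT cells among 3734 listed protein-coding genes. Of 1769 protein-coding genes past the filter, 6.39% lay at least as far below WT. An antisense model, Gm44876, overlaps Il4ra and is not in the table, and whether reads were assigned by strand is not stated.

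Il2ra encodes CD25, the alpha chain that raises the affinity of the IL-2 receptor, and is itself induced by STAT5 in T cells. It lies on chromosome 2 (11642807 to 11693193, plus strand). A model on the same strand, Gm37881, overlaps Il2ra and is not in the table. Il2ra stood at 1.47 RPKM in Tet2-/- cells and 4.84 RPKM in WT cells, the lowest level of the 6 genes in each library. The ratio of Tet2-/- to WT was 0.303, a log2 fold of -1.24, and only 0.848% of protein-coding genes past the filter (15 of 1769) lay as far below WT. The 2-fold call depends on the pseudocount, since with 5 RPKM in place of 1 the log2 fold was -0.61, short of the rule. Il2ra has a short annotated coding transcript of 1013 bases and a long one of 4412 bases, so the number of fragments depends on which was expressed. With the short one the estimate was 39 fragments in Tet2-/- cells and 126 in WT cells, with an interval of 0.206 to 0.437. With the long one it was 198 fragments in Tet2-/- cells and 639 in WT cells, with an interval of 0.257 to 0.356. In bulk RNA, fewer cells that express a gene and less RNA per cell cannot be told apart.

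Il2ra is also a marker of regulatory T cells and group 2 innate lymphoid cells, so lymphoid markers stand beside it. Of 12 T and innate lymphoid markers, 1 was listed, the natural killer receptor gene Ncr1, at 1.23 RPKM in Tet2-/- cells and 0.811 RPKM in WT cells. That ratio, 1.52, had an interval of 0.957 to 2.42. Ncr1 is not a marker of regulatory T cells or group 2 innate lymphoid cells, so its ratio does not bear on them. The part of lymphoid cells in the Il2ra difference was not tested. Il15ra, the neighbouring gene of the IL-15 receptor alpha chain, which is built like Il2ra, starts 12.1 kb downstream of it. Il15ra stood at 4.05 RPKM in Tet2-/- cells and 5.30 RPKM in WT cells, a ratio of 0.764 (0.492 to 1.21). The level of Il2ra relative to Il15ra was 0.362 in Tet2-/- cells and 0.913 in WT cells.

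Of the STATs and Janus kinases, 1 of 11 was listed, Stat2, the transducer of type I interferon signals (chromosome 10, 128270559 to 128292849, plus strand). It stood at 9.88 RPKM in Tet2-/- cells, on about 1329 fragments, and at 11.2 RPKM in WT cells, on about 1474 fragments. The ratio was 0.882 (0.818 to 0.950), a log2 fold of -0.17, and 17.5% of protein-coding genes past the filter lay as far below WT. STAT5 and STAT6 genes were not analysed here.

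Cish encodes CIS, a SOCS family protein that STAT5 induces and that binds activated cytokine receptors to limit STAT5 signalling. It lies on chromosome 9 (107296026 to 107302784, plus strand), with the paired STAT motifs shown above. Cish stood at 158 RPKM in Tet2-/- cells, on about 12975 fragments, and at 95.6 RPKM in WT cells, on about 7660 fragments. The ratio was 1.66 (1.61 to 1.70), a log2 fold of 0.72, short of the 2-fold rule. Of protein-coding genes past the filter, 3.34% (59 of 1769) lay as far above WT. Its rank among listed protein-coding genes was 85 in Tet2-/- cells and 149 in WT cells. A pseudogene model, Gm17040, and an antisense model, Gm17041, overlap Cish on the opposite strand and are not in the table.

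Socs7 encodes a SOCS family protein that binds adaptor proteins such as NCK. It lies on chromosome 11 (97362551 to 97398542, plus strand). It stood at 6.84 RPKM in Tet2-/- cells, on about 1492 fragments, and at 6.52 RPKM in WT cells, on about 1391 fragments. The ratio was 1.05 (0.975 to 1.13), and Socs7 was the gene of the 6 whose interval held 1. Cish was thus 23.2 times as abundant as Socs7 in Tet2-/- cells and 14.7 times in WT cells, on the RPKM scale. The other 6 genes of the 8-gene SOCS list were not analysed here.

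Bcl2l1 encodes the survival protein BCL-XL, which STAT5 induces downstream of IL-3 in haematopoietic cells. It lies on chromosome 2 (152780668 to 152831728, minus strand). It stood at 28.9 RPKM in Tet2-/- cells, on about 1560 fragments, and at 24.7 RPKM in WT cells, on about 1303 fragments by its shortest coding transcript. The ratio was 1.17 (1.09 to 1.26), a log2 fold of 0.22, and 17.0% of protein-coding genes past the filter lay as far above WT. Cish and Bcl2l1 were both higher in Tet2-/- cells, but by different amounts. The level of Cish relative to Bcl2l1 was 5.47 in Tet2-/- cells and 3.87 in WT cells.

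**Figure D3:**
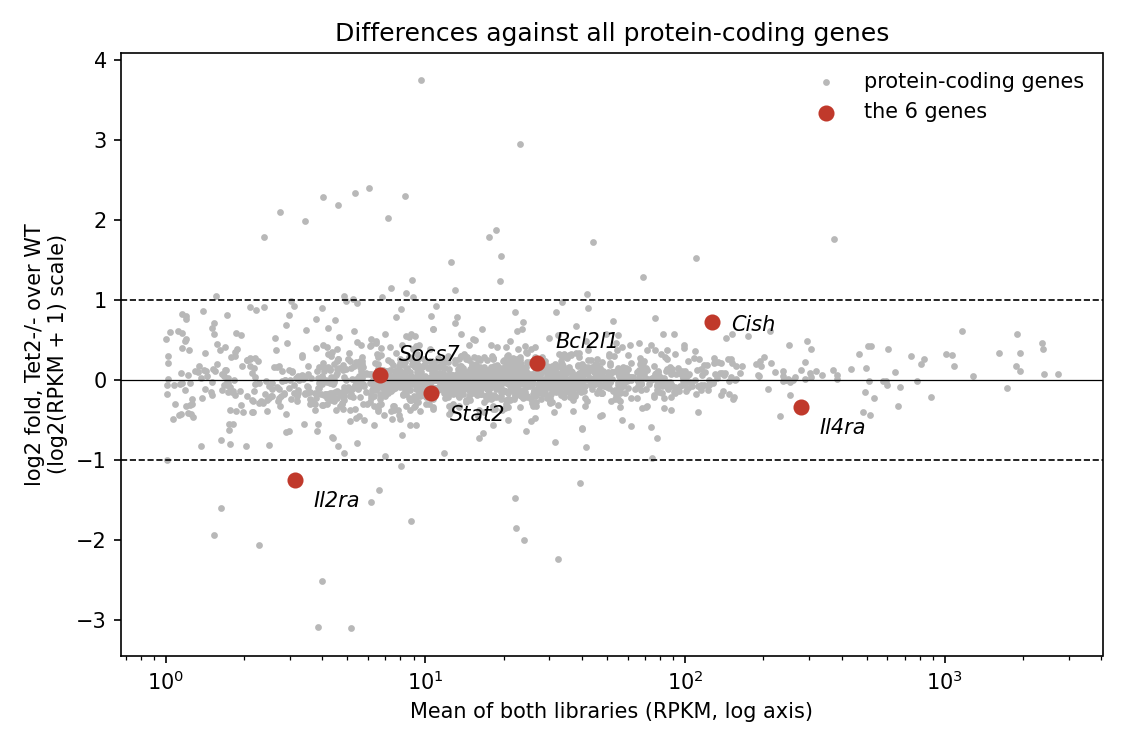
Log2 fold of Tet2-/- over WT on the log2(RPKM + 1) scale against the mean of both libraries in RPKM (log axis), for 1769 protein-coding genes averaging 1 RPKM or more (grey) and the 6 genes (red, named). Dashed lines mark a log2 fold of 1 in either direction. Il2ra, at -1.24, is the gene of the 6 beyond a line, and Cish, at 0.72, lies below the upper one.

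The levels relative to one another do not depend on the scaling between libraries. The level of Cish relative to Il4ra was 0.643 in Tet2-/- cells and 0.307 in WT cells, a 2.10-fold difference in this quotient. Il4ra was 168 times as abundant as Il2ra in Tet2-/- cells and 64.5 times in WT cells. The quotient of Cish over Stat2 was 16.04 in Tet2-/- cells and 8.54 in WT cells. The order of the 6 levels was the same in both libraries, with Il4ra highest, followed by Cish, Bcl2l1, Stat2, Socs7 and Il2ra.

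Related genes came from 14 lists holding 337 distinct genes, of which 57 were in the table and 36 passed the filter. Of the 30 that passed and are not among the 6 genes, none was higher by 2-fold and 1 was lower, Il1r2. Of all models past the filter, 2.90% were higher and 1.61% lower by this rule. The list named for class I cytokine receptors also held Il2ra and Il15ra, whose alpha chains are not of that family. Of its 34 genes, 9 were in the table and 4 passed the filter. All 4 were lower in Tet2-/- cells, as were 48.0% of all models past the filter. Il4ra and Il2ra, chosen on these values, are 2 of the 4. The median log2 fold was -0.33 over the 4, -0.21 over the 2 without them and -0.097 over all 9 listed genes. The counting interval lay below 1 for 3 of these 4, beside the 23.6% of all models, and 2 of the 3 were Il4ra and Il2ra. Besides Il4ra, Il2ra and Il15ra these included Csf2rb2, which encodes a beta chain of the mouse IL-3 receptor. Csf2rb2 stood at 1670.3 RPKM in Tet2-/- cells and 1787 RPKM in WT cells, a ratio of 0.935 (0.929 to 0.941). It has a close paralog, Csf2rb, and reads shared between the copies would make its value uncertain. Il4ra stood at 0.147 of the Csf2rb2 level in Tet2-/- cells and 0.175 in WT cells. The other 5 receptor genes of this list in the table were below 1 RPKM in both libraries.

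Receptors of other families went in both directions. Il10rb, a chain shared by the IL-10 and IL-22 receptors, stood at 11.3 RPKM in Tet2-/- cells and 9.43 RPKM in WT cells, a ratio of 1.20 (1.07 to 1.36). Ifngr1, the ligand-binding chain for interferon gamma, stood at 11.8 RPKM in Tet2-/- cells and 12.4 RPKM in WT cells, with an interval of 0.861 to 1.06. The death receptor family gene Tnfrsf21 stood at 18.1 RPKM in Tet2-/- cells and 12.3 RPKM in WT cells, a ratio of 1.47 (1.37 to 1.58). Il1r2, the decoy receptor for IL-1, stood at 0.0504 RPKM in Tet2-/- cells, on an estimated 2 fragments, and at 3.01 RPKM in WT cells, on 117. Its ratio was 0.0168 (0.00200 to 0.0618), a log2 fold of -1.93. Of the growth factor receptor kinases, 1 of 9 was listed, the macrophage receptor gene Csf1r, at 1.32 RPKM in Tet2-/- cells and 0.122 RPKM in WT cells.

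Apart from Il2ra, Cish and Bcl2l1, the STAT5 target list had 3 listed genes, each within a log2 fold of 0.07 of no difference. The survival gene Mcl1 stood at 82.6 RPKM in Tet2-/- cells and 86.5 RPKM in WT cells, which is a ratio of 0.954 (0.894 to 1.02). The prostaglandin D synthase gene Hpgds stood at 66.5 RPKM in Tet2-/- cells and 68.9 RPKM in WT cells. The transcription repressor gene Gfi1b stood at 33.2 RPKM in Tet2-/- cells and 32.5 RPKM in WT cells. The whole list of 35 genes had 6 listed, with a median log2 fold of -0.010, 3 genes higher and 3 lower. Of the 21 STAT6 targets, 5 were listed and 3 passed the filter. Of these, Clec10a, a lectin gene of alternatively activated macrophages, stood at 14.7 RPKM in Tet2-/- cells and 7.28 RPKM in WT cells, a ratio of 2.02 (1.75 to 2.33) and a log2 fold of 0.92. Monocyte and macrophage markers were higher in Tet2-/- cells as well, with 6 of 12 listed and a summed level of 23.8 RPKM in Tet2-/- cells and 1.06 RPKM in WT cells. All 6 had an interval above 1, as did 18.9% of 3354 listed models with an interval. Of the 6, 1 passed the filter, Ly6c2, and among models below the filter the share was 8.03%. Ly6c2, which has close paralogs, made up 18.8 RPKM of the sum in Tet2-/- cells and 0.479 RPKM of that in WT cells. Csf1r, Mrc1, Msr1 and C1qb ran from 0.775 to 1.51 RPKM in Tet2-/- cells and from 0.0802 to 0.200 RPKM in WT cells. Neutrophil markers, with 3 of 9 listed, summed to 10.1 RPKM in Tet2-/- cells and 1.12 RPKM in WT cells. Ly6g was at 9.61 RPKM in Tet2-/- cells and 1.10 RPKM in WT cells, and Csf3r at the substituted value of 0.01 in both. An interval could be given for 1 of the 3, and it lay above 1. The basophil protease gene Mcpt8, 1 of 5 basophil markers, stood at 163 RPKM in Tet2-/- cells and 56.1 RPKM in WT cells. Eosinophil markers, 2 of 7 listed, summed to 2.27 RPKM in Tet2-/- cells and 0.829 RPKM in WT cells. Of these, Il5ra was at 0.820 RPKM in Tet2-/- cells and 0.712 RPKM in WT cells, with an interval that held 1. The other eosinophil marker had an interval above 1 and held most of the difference between the sums. The B cell marker Cd79a, 1 of 5, was at 0.147 RPKM in Tet2-/- cells and 0.0250 RPKM in WT cells, and none of 6 dendritic cell markers was listed. The part of such cells in the Clec10a, Cish or Il4ra values was not tested.

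Regulators that act beside the SOCS proteins were few in the table, with 3 of 19 other negative regulators and 1 of 8 SOCS box ubiquitin ligase subunits. Cblb, which encodes a ubiquitin ligase that restrains receptor signalling, was at 5.86 RPKM in Tet2-/- cells and 6.87 RPKM in WT cells, a ratio of 0.853 (0.763 to 0.953). Pias4, an inhibitor of STAT activity, was at 13.97 RPKM in Tet2-/- cells and 14.6 RPKM in WT cells, and the adaptor gene Sh2b2 at 1.39 RPKM in Tet2-/- cells and 1.21 RPKM in WT cells, both with intervals that held 1. Tceb1, which encodes elongin C, the subunit that joins SOCS proteins to their ubiquitin ligase, was at 93.4 RPKM in Tet2-/- cells and 90.2 RPKM in WT cells. Among 5 listed adaptors and kinases, Pik3r2, a regulatory subunit of PI3 kinase, was at 6.70 RPKM in Tet2-/- cells and 8.99 RPKM in WT cells, a ratio of 0.745 (0.671 to 0.827). The Toll and IL-1 receptor adaptor gene Myd88 was at 54.6 RPKM in Tet2-/- cells and 47.7 RPKM in WT cells, a ratio of 1.15 (1.09 to 1.21). The adaptor gene Traf2 was at 16.3 RPKM in Tet2-/- cells and 14.1 RPKM in WT cells, a ratio of 1.16 (1.06 to 1.27). Mapk3, the kinase ERK1, and Dok1, an inhibitory adaptor, had intervals that held 1.

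Stat2 is on a list of 48 interferon response genes, of which 12 were listed and 8 passed the filter. Of these 8, 6 were higher in Tet2-/- cells, as were 52.0% of all models past the filter. The counting interval lay above 1 for 3 of the 8 and below 1 for 2, Stat2 among them, beside 27.1% and 23.6% of all models. The median log2 fold of the 8 was 0.13, or 0.16 without Stat2. None of the 8 reached 2-fold, beside 4.51% of all models past the filter that did. Oas1a, an antiviral nucleotide synthetase gene with close paralogs, stood at 6.63 RPKM in Tet2-/- cells and 3.97 RPKM in WT cells, a ratio of 1.67 (1.41 to 1.99). Ifi35 stood at 25.05 RPKM in Tet2-/- cells and 21.7 RPKM in WT cells, a ratio of 1.16 (1.05 to 1.27). Ifi27l2a and Trim25 had ratios of 1.20 and 1.13 with intervals that held 1. Ddx58, the RNA sensor RIG-I, was lower like Stat2, at 7.61 RPKM in Tet2-/- cells and 8.81 RPKM in WT cells, a ratio of 0.863 (0.789 to 0.946). Ifit3, Rsad2 and Ifi44, which interferon induces strongly, were below 0.4 RPKM in both libraries. Gbp3, also below the filter, stood at 0.861 RPKM in Tet2-/- cells and 0.461 RPKM in WT cells, a ratio of 1.87 (1.23 to 2.90).

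In the BCL2 family 7 of 26 genes were listed and 4 passed the filter. Bak1, which encodes a pore-forming killer protein that BCL-XL binds, stood at 63.2 RPKM in Tet2-/- cells and 45.4 RPKM in WT cells, a ratio of 1.39 (1.28 to 1.51). The level of Bcl2l1 relative to Bak1 was 0.458 in Tet2-/- cells and 0.545 in WT cells. Bnip3l, a mitophagy receptor gene, stood at 62.7 RPKM in Tet2-/- cells and 79.2 RPKM in WT cells, a ratio of 0.791 (0.765 to 0.819). Bcl2l1 relative to Mcl1 was 0.351 in Tet2-/- cells and 0.286 in WT cells.

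Of 40 cytokine genes 7 were listed, and Il5, Il10 and Cxcl10 stood at the substituted value of 0.01 in both libraries. The chemokine gene Ccl4 stood at 4.37 RPKM in Tet2-/- cells and 1.70 RPKM in WT cells, a ratio of 2.56 (1.61 to 4.19) and a log2 fold of 0.99. The angiogenic factor gene Vegfa stood at 31.5 RPKM in Tet2-/- cells and 48.7 RPKM in WT cells, a ratio of 0.646 (0.561 to 0.741). The mast cell markers, 4 of 16 listed, summed to 1026 RPKM in Tet2-/- cells and 1267 RPKM in WT cells. Most of that gap lay in the IgE receptor gamma chain gene Fcer1g, at 438 RPKM in Tet2-/- cells and 594 RPKM in WT cells, and the amine transporter gene Slc18a2, at 491 RPKM in Tet2-/- cells and 572 RPKM in WT cells. Their ratios, 0.736 and 0.859, lay on either side of that of Il4ra. Hpgds, another of the 4 listed markers, lay nearer to 1, at 0.964 (0.933 to 0.997). All 4 were lower in Tet2-/- cells, as were 48.0% of all models past the filter. The counting interval lay below 1 for 3 of the 4, beside 23.6% of all models. A link of these values to that of Il4ra was not tested.

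**Figure D4:**
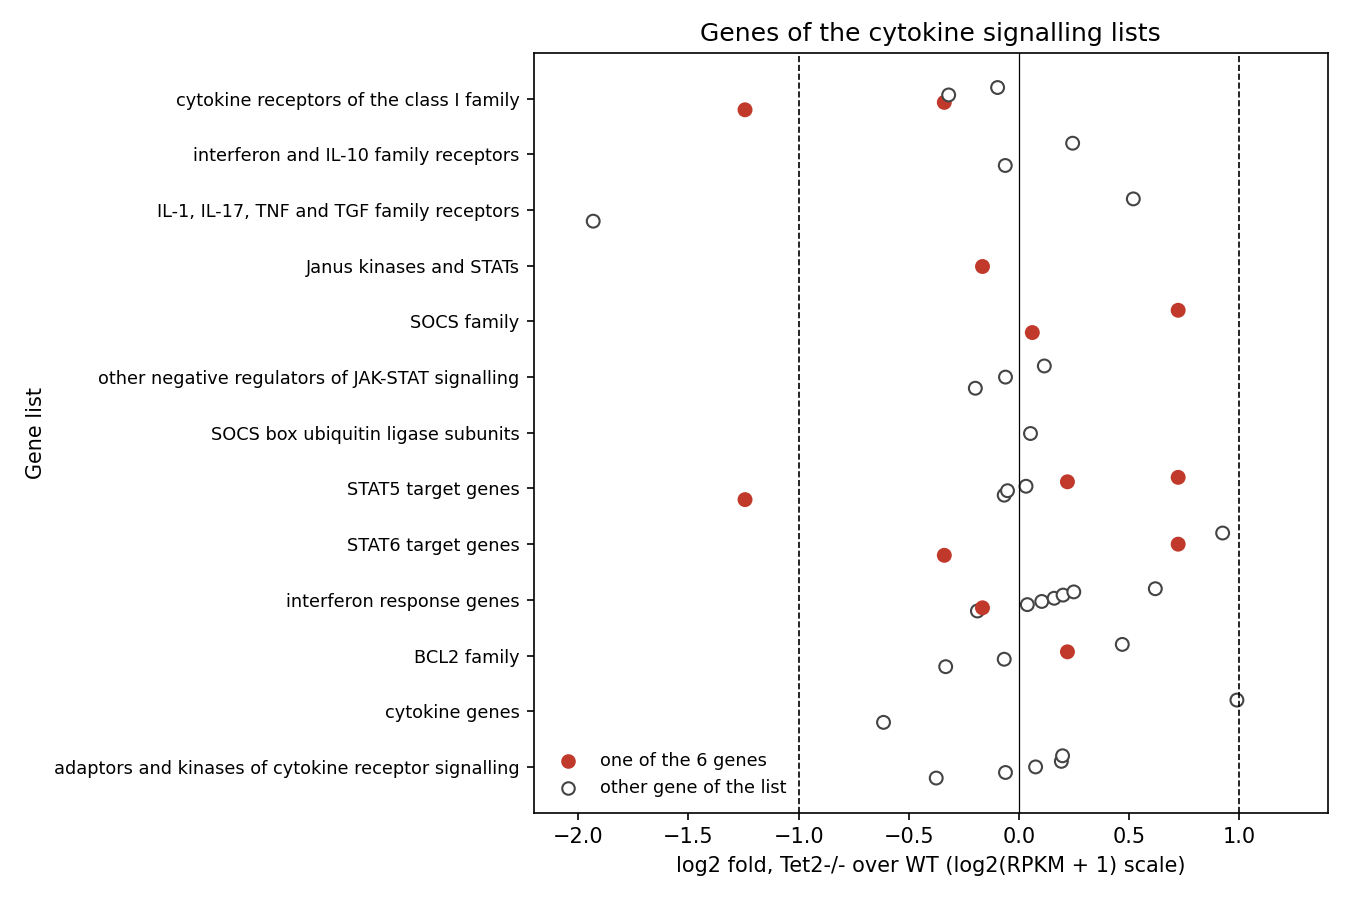
Log2 fold of Tet2-/- over WT on the log2(RPKM + 1) scale for genes of each list averaging 1 RPKM or more, 1 list per row, with the 6 genes filled red and other genes open. Dashed lines mark a log2 fold of 1 in either direction. Beyond them lie Il2ra, at -1.24, which appears on 2 lists, and Il1r2, at -1.93.

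Genes beside the 6 on the chromosome were sparse in the table. Of 39 annotated protein-coding genes within 100 kb, 8 were listed and 4 passed the filter. Beside 4.51% of all models past the filter, none of these 4 was beyond 2-fold. Besides Il15ra these were Gtf3c1 near Il4ra, at 12.02 RPKM in Tet2-/- cells and 12.3 RPKM in WT cells, H13 near Bcl2l1, at 50.8 RPKM in Tet2-/- cells and 51.5 RPKM in WT cells, and Cnpy2 near Stat2, at 91.9 RPKM in Tet2-/- cells and 84.5 RPKM in WT cells. The protein-coding neighbour of Cish that was listed, Cacna2d2, was at 0.0849 RPKM in Tet2-/- cells and 0.0723 RPKM in WT cells.

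With 2 libraries, likeness of pattern is distance in the plane of both log2(RPKM + 1) values, and it reflects level more than difference. The protein-coding genes nearest to Cish were Serpinb6a, at 170 RPKM in Tet2-/- cells and 118 RPKM in WT cells, and Ier3ip1, at distances of 0.31 and 0.32. Nearest to Il2ra were Per2, at 1.55 RPKM in Tet2-/- cells and 3.47 RPKM in WT cells, and Plekhn1, at distances of 0.39 and 0.42. Nearest to Il4ra were Maob and Gnai2, at distances of 0.21 and 0.27. Socs7, Stat2 and Bcl2l1 had neighbours within 0.06, led by Trip13, Tmem63a and Plod1. Cish, Il2ra and Il4ra thus lay farther from any other gene than the other 3 did.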

How the data were processed

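Per the file headers, the deposited values are RPKM, in 1 table with a column for each genotype. The submitters' processing notes name mm10 as the build. Which aligner, counter and gene models were used is not given in the sources used here. Total RNA (1 µg) went into Illumina TruSeq libraries, per the labels' protocols. The value 0.01, held by 57.4% of models in Tet2-/- and 58.1% in WT, was read as a substitute for no reads, although 80 and 67 models lie below it.

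Symbols were matched to GENCODE mouse release M21 (7841 of 8139 matched 1 gene), whose build is that of mm10. Depth and 1 length offset of 176 bases were chosen so that low values of genes with 1 transcript became whole fragments. Within 0.1 of a whole number were 95.9% of 292 genes in Tet2-/- and 96.6% of 263 in WT, where chance without a fit gives 20%. The fit used the values of these same genes, so these shares are no independent check of it. Fragments were computed from the shortest basic coding transcript, and none for transcripts under 400 bases. The fit of depth and offset, the 2-fold rule and the interval were tested on simulated data. There the interval was given known fragment numbers and depths, so the recovery of fragments from RPKM and transcript length was not tested. Genes were named by rule: the 6 genes, up to 6 per list by size of difference among those past the filter, listed cell markers, and the 2 nearest genes. Ranges, ratios between genes and genes below the filter were chosen with the values in view, and so were the 4-base-spacer and interferon motifs. The members and lists were chosen with earlier results of these data known. Tet2 was not analysed here. The single value of 1 listed cell marker is not reported here, although it stays in the counts and sums. The software was Python 3.11.15 with scipy 1.17.1, pandas 2.3.3, numpy 2.4.6 and, for plots, matplotlib 3.10.9.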

Additional observations from a re-analysis of the deposited data

How the results depend on the processing

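No paired analysis was possible because there is only 1 library per genotype, which also means that none could be left out. Of 24 alternative log2 folds of the 6 genes, 20 were classed as the same, 4 as moved and 0 as changed in direction. However, a pseudocount cannot change a sign, and median-ratio scaling shifted values by only -0.0098. Il2ra was at -1.66 with a pseudocount of 0.1 RPKM and at -0.61, short of 2-fold, with 5 RPKM. Relative to the 100 models nearest in mean RPKM, Il4ra was at -0.42 and Cish at 0.68. The longest transcript in place of the shortest, chosen after seeing the data, left all 12 interval bounds on the same side of 1. Models higher and lower by 2-fold numbered 61 and 34. They were 33 and 14 with a pseudocount of 5 RPKM, 40 and 16 among models averaging 5 RPKM or more, 123 and 76 at 1.5-fold, and 30 and 16 among protein-coding genes. Of 65 alternative list medians, 4 moved by over 1.5-fold. The IL-1, IL-17, TNF and TGF receptor list, with 2 genes past the filter and a median of -0.71, gave -1.91 with a pseudocount of 0.1 RPKM, 0.034 with no filter and 0.52 among genes averaging 5 RPKM or more. The cytokine gene list, at 0.19, gave -0.61 above that mean and -0.038 with a pseudocount of 5 RPKM. The STAT5 target median changed sign, from -0.010 to 0.032, above that mean, when Il2ra left the list. Fewer genes entered under stricter filters. Low depth widens the intervals of genes such as Il2ra, at 39 estimated fragments in Tet2-/- cells, and Il1r2, at 2.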
